A study of Mus musculus with 6 samples.

Results

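Respiratory complex I genes were followed here as the 47 genes of the array whose symbol starts with Nduf and which have a probe set that carries no other symbol. Each of the 47 had 1 such probe set, out of 30137 symbols with a probe set of their own and 65770 transcript probe sets. By the letters after Nduf they fall into 9 genes of the Ndufs and Ndufv series, which hold the nuclear-encoded core subunits, 27 genes of the Ndufa, Ndufb and Ndufc series of accessory subunits, 8 Ndufaf assembly factors and 3 pseudogenes (Ndufs6b, Ndufa11b and Ndufs5-ps). All 47 passed the filter on low signal. The names are a looser guide than they look. Of the 9 Ndufs and Ndufv genes, 6 encode catalytic subunits (Ndufs1, Ndufs3, Ndufs7, Ndufs8, Ndufv1 and Ndufv2), while Ndufs4, Ndufs5 and Ndufv3 are supernumerary. Of the 27 accessory genes, Ndufa4 encodes a subunit of complex IV and Ndufa4l2 is its paralog, and Ndufb4b and Ndufb4c are copies of Ndufb4. RefSeq lists 54 Nduf symbols. The 7 others are not analysed here, of which Ndufs6, Ndufb4 and Ndufa11 occur only on probe sets shared with a copy.

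Complex I oxidises NADH in the mitochondrial matrix, passes the electrons to ubiquinone and pumps protons across the inner membrane. It is built from a peripheral arm, made of an NADH-oxidising N module and a ubiquinone-reducing Q module, and a membrane arm that carries the proton channels. The ND subunits of the membrane arm are encoded by mitochondrial DNA and all others by the nucleus, and assembly factors bring the modules together without staying in the finished enzyme. In the heart, which draws most of its ATP from oxidative phosphorylation, these genes are expressed at high levels in cardiomyocytes.

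The signals came from 6 Affymetrix mouse transcriptome arrays, 3 from hearts with myocardial infarction (MI) and 3 from sham-operated hearts. All were from male C57BL/6 mice with no other genotype or agent stated, sampled 4 weeks after surgery, and the sources used here give no age for the animals. MI was produced by tying off the left anterior descending coronary artery, and RNA was taken from the peri-infarct region, or from the matching region of sham hearts, so each array reads a mixture of surviving muscle, scar and other cells. The labels do not say that the 3 arrays of a group came from separate hearts, and p-values measure the spread between these arrays only.

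Some arrays stood apart. Among atrial markers, which a ventricular sample should lack, Myl7 had log2 signals of 4.95, 11.19 and 8.43 in sham 1 to 3 and 4.51 to 4.78 in MI arrays, and Sln had 4.46, 10.25 and 7.45 against 4.31 to 5.13. By Myl7 and Sln, sham 2 and sham 3 thus carried an atrial signal that sham 1 and the MI arrays did not. The other listed atrial markers showed less: Myl4 had 5.22, 5.87 and 5.90 in sham and 5.19 to 5.31 in MI arrays. Bmp10 did not pass the filter, at 3.47 to 3.56 in sham and 3.41 to 3.62 in MI arrays. Probe sets for small nuclear RNA had a median log2 signal 2.23 higher in MI 3 than in the mean of MI 1 and MI 2, and 1.20 higher in sham 1 than in the mean of sham 2 and sham 3. For protein-coding genes the same medians were -0.03 and -0.02. The part of these arrays in the results was not tested, and results without them are given. Signals reached a highest value of 19.79 to 19.93 per array, and no Nduf gene lay within 0.3 of it.

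**Figure D1:**
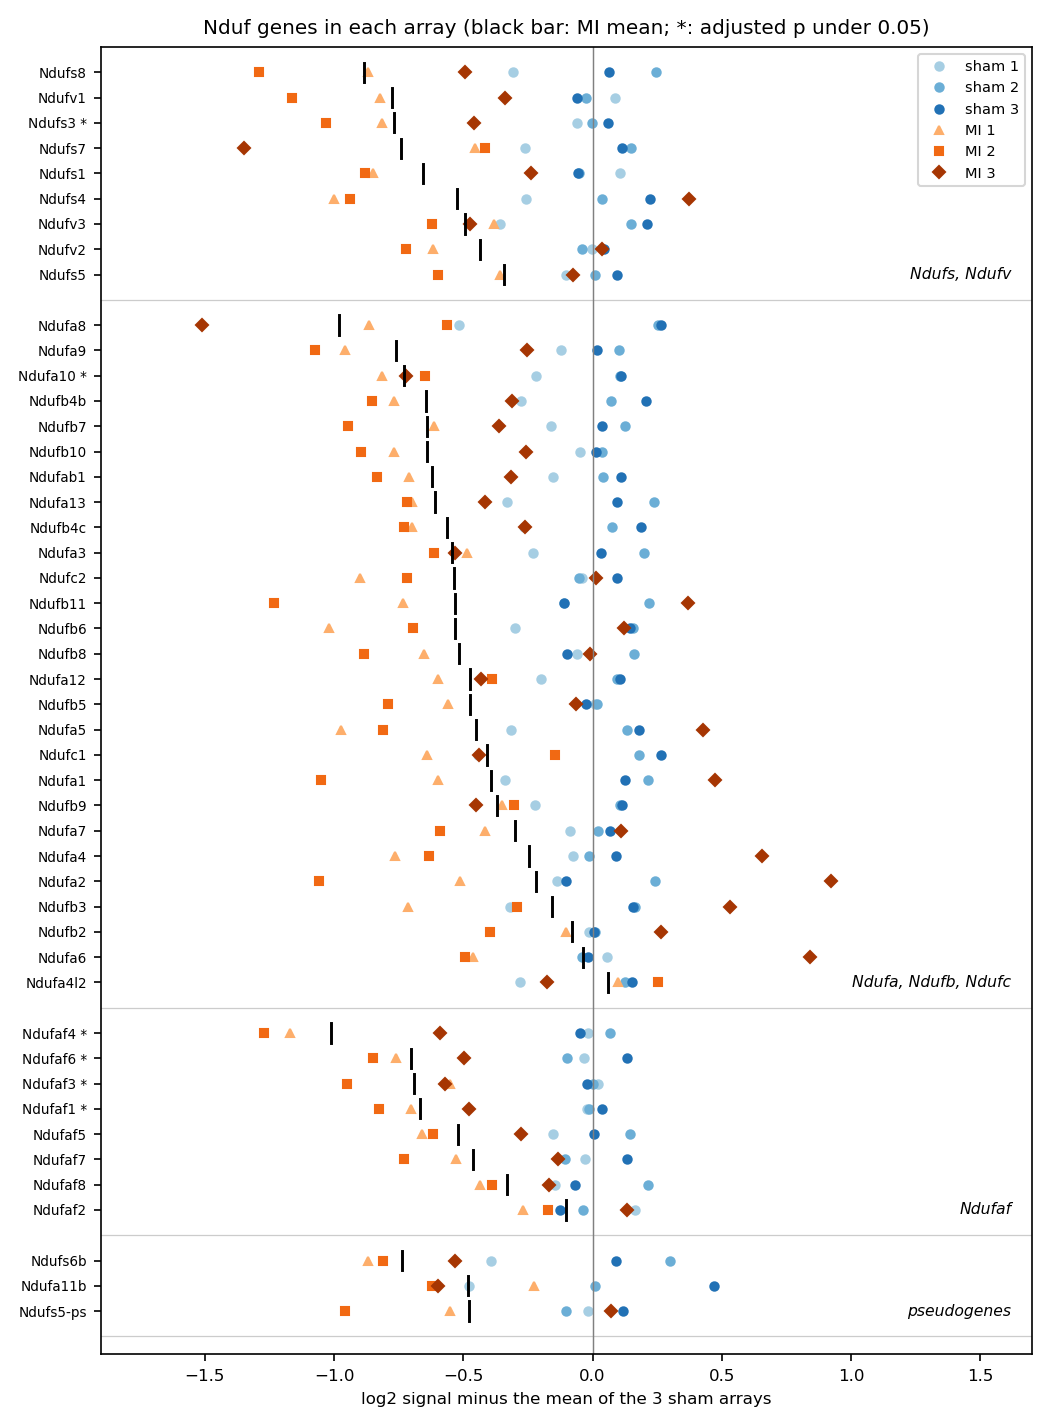
Log2 signal of each of the 47 Nduf genes in each array, as its difference from the mean of the 3 sham arrays (x axis), with genes grouped by series and ordered by the MI mean (black bar). Asterisks mark the 6 genes at an adjusted p under 0.05. MI 1 and MI 2 lie to the left of the sham arrays for nearly all genes, while MI 3 is scattered to both sides among the Ndufa and Ndufb genes.

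As a group, the Nduf genes lay lower in MI than in sham hearts. The log2 fold change, which is the MI mean minus the sham mean of the log2 signals, was below 0 in 46 of 47, with a median of -0.52 and a range of -1.01 to 0.06. Over all 32885 probe sets tested the median was 0.01 and 48.1% lay below 0, and over protein-coding genes it was -0.05 and 58.1%. In 26 of 47 genes (55.3%) every MI array was below every sham array, which held for 16.8% of all probe sets and 26.8% of protein-coding genes. In 0 of 47 was every MI array above every sham array, against 15% of probe sets. Fewer cardiomyocytes and less Nduf RNA per cardiomyocyte cannot be told apart in such tissue.

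In limma's moderated test, with p-values adjusted over all probe sets tested (Benjamini-Hochberg), 6 of the 47 genes (12.8%) were down-regulated and 0 up-regulated at an adjusted p under 0.05. Over all probe sets tested, 3.69% were lower and 3.04% higher, and 6.41% of protein-coding genes were lower. Nduf genes are brightly expressed, and with the filter raised to the 75th percentile of signal, which 45 of the 47 passed, the same 6 were called beside 7.78%. At an unadjusted p under 0.05 the count was 27, all lower, beside 13.2% of probe sets. The 6 down-regulated genes were the assembly factors Ndufaf4, Ndufaf6, Ndufaf3 and Ndufaf1, the catalytic subunit Ndufs3 and the accessory subunit Ndufa10.

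These calls depended on single arrays. Without MI 3, limma called 29 Nduf genes lower, among them the same 6, beside 7.4% of probe sets. Without sham 1 it called Ndufa10 alone (0.517% of probe sets). Without sham 2, sham 3, MI 1 or MI 2 it called 0, with 18 to 21 genes at an unadjusted p under 0.05, beside 9.74% to 10.8% of probe sets. In these last 4 fits it called hardly any probe set lower at all, 0% without sham 2, sham 3 or MI 1 and 0.0426% without MI 2. With sham 2 and sham 3 both left out, the arrays with atrial signal, sham 1 stands alone and is assumed to vary like the MI arrays, which give the only spread. That fit called 0% of all probe sets lower and so 0 Nduf genes, with 5 at an unadjusted p under 0.05 beside 6.25% of probe sets. The median log2 fold change of the 47 genes was then -0.37. With sham 1 and MI 3 both left out, 36 were called beside 6.95%. In each of the 6 genes called with all arrays, every MI array was below every sham array, so leaving arrays out could not change their direction.

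By series, the median log2 fold change was -0.66 for the 9 Ndufs and Ndufv genes, -0.51 for the 27 accessory genes and -0.59 for the 8 assembly factors. The counts called were 1 of 9 (11.1%), 1 of 27 (3.70%) and 4 of 8 (50%), against 3.69% of all probe sets and 6.41% of protein-coding genes. The accessory genes were thus called at about the share of all probe sets. Every MI array was below every sham array in 6 of 9, 12 of 27 and 7 of 8, against 16.8% of all probe sets and 26.8% of protein-coding genes. The medians were thus close to each other, and no difference between the series was tested. Array by array, the median differences from the sham mean were -0.81, -0.88 and -0.34 in MI 1 to 3 for the Ndufs and Ndufv genes, -0.70, -0.72 and -0.18 for accessory genes, and -0.61, -0.78 and -0.38 for assembly factors. In each series MI 3 was the MI array nearest to sham. Over all 47 genes the medians were -0.66, -0.73 and -0.26 in MI 1 to 3 and -0.14, 0.08 and 0.09 in sham 1 to 3.

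**Figure D2:**
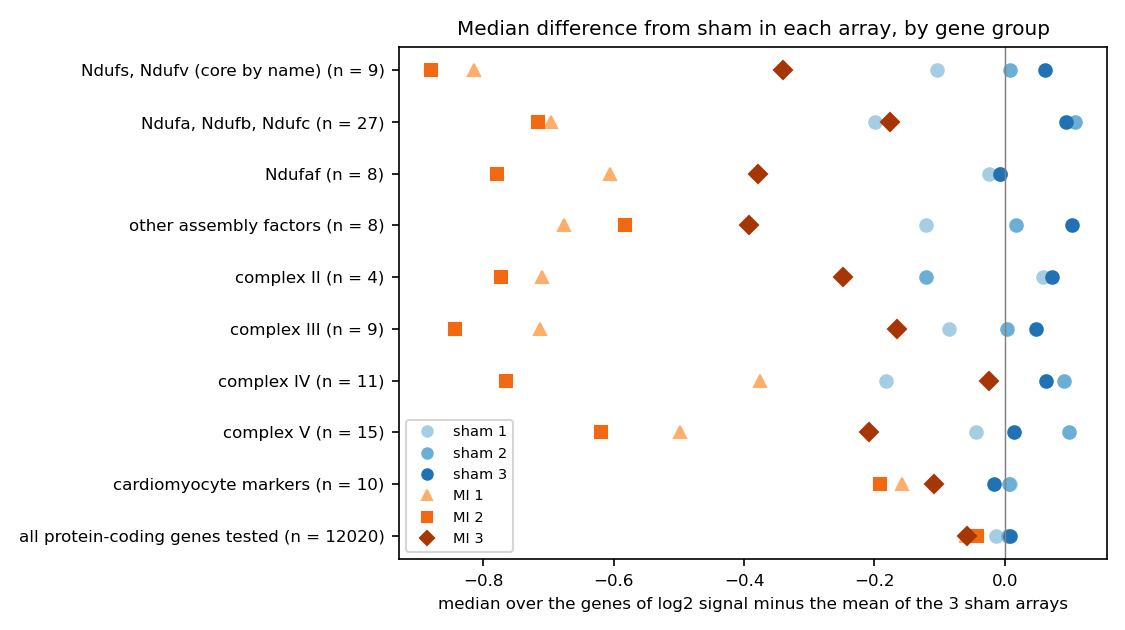
Median difference from the sham mean (x axis, log2) in each of the 6 arrays (points) for the series of Nduf genes, other assembly factors, complexes II to V, cardiomyocyte markers and protein-coding genes (y axis). MI 1 and MI 2 lie below the sham arrays in all series of Nduf genes, and MI 3 lies below them among Ndufs, Ndufv and Ndufaf genes and beside sham 1 among accessory genes (-0.18 and -0.20).

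The Ndufaf assembly factors held most of the calls. Ndufaf4, which works with Ndufaf3 in building the Q module, had log2 signals of 11.01, 11.09 and 10.98 in sham arrays and 9.86, 9.76 and 10.43 in MI arrays, with MI 3 the nearest to sham. Its log2 fold change was -1.01 (SE 0.19, limma, adjusted p = 0.036), and it was the only one of the 47 to pass a 2-fold change. Its partner Ndufaf3 measured 9.00, 8.98 and 8.96 in sham and 8.43, 8.03 and 8.41 in MI arrays, a log2 fold change of -0.69 (SE 0.13, limma, adjusted p = 0.036). For this gene MI 1 and MI 3 were alike and MI 2 the lowest. Ndufaf6, needed for an early step around the ND1 subunit, measured 7.96, 7.89 and 8.12 in sham and 7.23, 7.14 and 7.49 in MI arrays, a log2 fold change of -0.70 (SE 0.13, limma, adjusted p = 0.034). Ndufaf1, which joins Ecsit and Acad9 in the complex that assembles the membrane arm, measured 10.28, 10.29 and 10.34 in sham and 9.60, 9.48 and 9.83 in MI arrays, a log2 fold change of -0.67 (SE 0.11, limma, adjusted p = 0.030). The 3 sham arrays were tightly grouped for these 4 genes, and no MI array reached them.

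The other Ndufaf genes were not called. Ndufaf5, which hydroxylates the Ndufs7 protein, had a log2 fold change of -0.52 (limma, adjusted p = 0.085). Ndufaf7, a mitochondrial methyltransferase, had -0.46 (limma, adjusted p = 0.16), and Ndufaf8, the partner of Ndufaf5, had -0.33 (limma, adjusted p = 0.20). In these 3 the groups still did not overlap. Ndufaf2, which helps to attach the N module, was the exception, with 6.27, 6.07 and 5.97 in sham and 5.83, 5.93 and 6.24 in MI arrays, a log2 fold change of -0.10 (SE 0.14, limma, adjusted p = 0.70). Here MI 3 lay within the sham range.

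The promoters of these genes are shown because the called genes lie on several chromosomes and nuclear genes of the respiratory chain are known targets of NRF1 and of the ETS factor GABP. RefSeq (GRCm38.p6) gave the 250 bases before the start for 38 of the 47 genes, in 40 windows, and 5 motifs were searched on both strands: GCGCATGC for NRF1, TNAAGGTCA for the oestrogen-related receptors, CCGGAAG for ETS factors, AAGATGGC for YY1 and GGGCGG for the GC box. The NRF1 letters were found in 3 of 40 windows (7.5%, against 2.26% of all promoters and 2.93% of protein-coding ones) and the ETS letters in 5 (12.5%, against 6.91% and 8.98%). The GC box was found in 18 (45%, against 32.7% and 42.6%), and the receptor and YY1 letters in 0, against 1.14% and 1.56% of all promoters. Among the called genes, Ndufaf4 held the NRF1 letters on both strands, overlapping, 113 and 111 bases before the start, and Ndufs3 and Ndufaf1 held the ETS letters at 27 and 18 bases. The windows are given 5′ to 3′ on the gene's strand, for Ndufaf4 at chr4:24897833-24898082 (+), Ndufs3 at chr2:90904722-90904971 (-) and Ndufaf1 at chr2:119662835-119663084 (-), with every motif match in capitals. Of the other called genes, Ndufa10 and Ndufaf3 held neither motif and Ndufaf6 had no window. Among uncalled genes, Ndufa6 and Ndufa8 held the NRF1 letters and Ndufaf8, Ndufb6 and Ndufb7 the ETS letters. A match is only a description of the letters. In Ndufs3 the ETS letters overlap a GC box.
Ndufaf4: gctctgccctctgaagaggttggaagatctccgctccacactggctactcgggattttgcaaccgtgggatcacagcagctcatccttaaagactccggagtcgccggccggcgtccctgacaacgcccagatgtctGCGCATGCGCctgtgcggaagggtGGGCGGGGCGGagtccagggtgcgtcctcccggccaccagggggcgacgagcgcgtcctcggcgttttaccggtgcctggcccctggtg
Ndufs3: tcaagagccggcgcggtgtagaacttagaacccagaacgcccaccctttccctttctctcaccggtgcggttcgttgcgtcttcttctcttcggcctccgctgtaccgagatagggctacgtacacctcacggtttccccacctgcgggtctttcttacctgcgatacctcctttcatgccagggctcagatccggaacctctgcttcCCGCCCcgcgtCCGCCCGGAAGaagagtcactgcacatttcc
Ndufaf1: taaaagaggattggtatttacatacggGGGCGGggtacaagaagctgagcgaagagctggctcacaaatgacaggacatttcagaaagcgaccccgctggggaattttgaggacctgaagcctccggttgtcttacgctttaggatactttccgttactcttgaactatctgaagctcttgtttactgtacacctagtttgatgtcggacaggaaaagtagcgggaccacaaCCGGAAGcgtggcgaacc

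Among the catalytic subunits the median log2 fold change was -0.75, and in 5 of the 6 every MI array was below every sham array. That held for 16.8% of all probe sets and 26.8% of protein-coding genes. Ndufs3, a scaffold subunit of the Q module, measured 12.83, 12.89 and 12.95 in sham and 12.07, 11.86 and 12.43 in MI arrays. Its log2 fold change was -0.77 (SE 0.16, limma, adjusted p = 0.044). It was the only one of the 6 to be called, against 3.69% of all probe sets and 6.41% of protein-coding genes called lower. Ndufs8, which binds iron-sulphur clusters of the Q module, had a larger difference but a wider spread, with 14.95, 15.51 and 15.32 in sham and 14.39, 13.97 and 14.77 in MI arrays. Its log2 fold change was -0.88 (SE 0.24, limma, adjusted p = 0.083). For Ndufv1, which binds NADH and FMN, the value was -0.77 (limma, adjusted p = 0.083), and for Ndufs1, the long iron-sulphur subunit of the N module, -0.66 (limma, adjusted p = 0.098). Ndufs7, which carries the last iron-sulphur cluster before ubiquinone, measured 14.64, 15.05 and 15.01 in sham and 14.45, 14.48 and 13.55 in MI arrays, and was 1 of 3 genes, with Ndufa8 and Ndufb9, with MI 3 the lowest of all arrays (log2 fold change -0.74, limma, adjusted p = 0.17). In Ndufv2, an iron-sulphur subunit of the N module, MI 3 lay within the sham range and the log2 fold change was -0.43 (limma, adjusted p = 0.26).

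The 3 supernumerary genes of the same series had a median of -0.49, with 0 called, against 3.69% of all probe sets called lower. Ndufs4, whose loss in mice gives a Leigh-like encephalopathy, measured 13.08, 13.37 and 13.56 in sham and 12.33, 12.39 and 13.71 in MI arrays. MI 1 and MI 2 were well below and MI 3 above all sham arrays, so that the log2 fold change of -0.52 had an SE of 0.39 (limma, adjusted p = 0.45). Ndufv3 had -0.49 with groups that did not overlap (limma, adjusted p = 0.15). Ndufs5 measured 7.37, 7.48 and 7.57 in sham and 7.11, 6.88 and 7.40 in MI arrays, the change nearest to 0 in the series, at -0.34 (SE 0.15, limma, adjusted p = 0.23).

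The accessory genes ran from -0.98 to 0.06 on the log2 scale. Ndufa10, a membrane arm subunit with a nucleoside kinase-like fold, was the only one called. It measured 16.50, 16.82 and 16.83 in sham and 15.90, 16.07 and 15.99 in MI arrays, with all 3 MI arrays alike and a log2 fold change of -0.73 (SE 0.12, limma, adjusted p = 0.029). Ndufa8, an intermembrane space subunit, had a larger difference but a wide spread, at 15.47, 16.23 and 16.25 in sham and 15.12, 15.42 and 14.47 in MI arrays (log2 fold change -0.98, SE 0.32, limma, adjusted p = 0.12). Sham 1 and MI 3 were each the lowest of their group. Ndufa9, at the joint between the arms, had -0.76 (limma, adjusted p = 0.10), and its groups did not overlap. The same was true of Ndufb7 (-0.64), Ndufb10 (-0.64), Ndufab1, the mitochondrial acyl carrier protein (-0.62), Ndufa13, also known as GRIM-19 (-0.61), Ndufa3 (-0.54), Ndufa12 (-0.47), Ndufb5 (-0.47) and Ndufb9 (-0.37), none of them called.

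In the remaining accessory subunits of complex I the groups overlapped. Ndufb11, Ndufb6, Ndufc2 and Ndufb8 had log2 fold changes of -0.53, -0.53, -0.53 and -0.51, followed by Ndufa5 (-0.45), Ndufc1 (-0.41), Ndufa1 (-0.39), Ndufa7 (-0.30), Ndufa2 (-0.22), Ndufb3 (-0.16) and Ndufb2 (-0.08). Ndufa6 had the value nearest to 0 among them, -0.04 (SE 0.36, limma, adjusted p = 0.96), with 10.93, 10.84 and 10.86 in sham and 10.41, 10.38 and 11.72 in MI arrays. Here MI 1 and MI 2 were below and MI 3 above every sham array, and the mean hides both. Grouped by place in the enzyme, core and accessory genes together, the median was -0.76 for 5 Q module genes, -0.47 for 9 N module genes and -0.53 for 17 membrane arm genes. In that order 1 (20%), 0 and 1 (5.88%) were called, against 3.69% of all probe sets and 6.41% of protein-coding genes called lower. No difference between modules was tested.

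**Figure D3:**
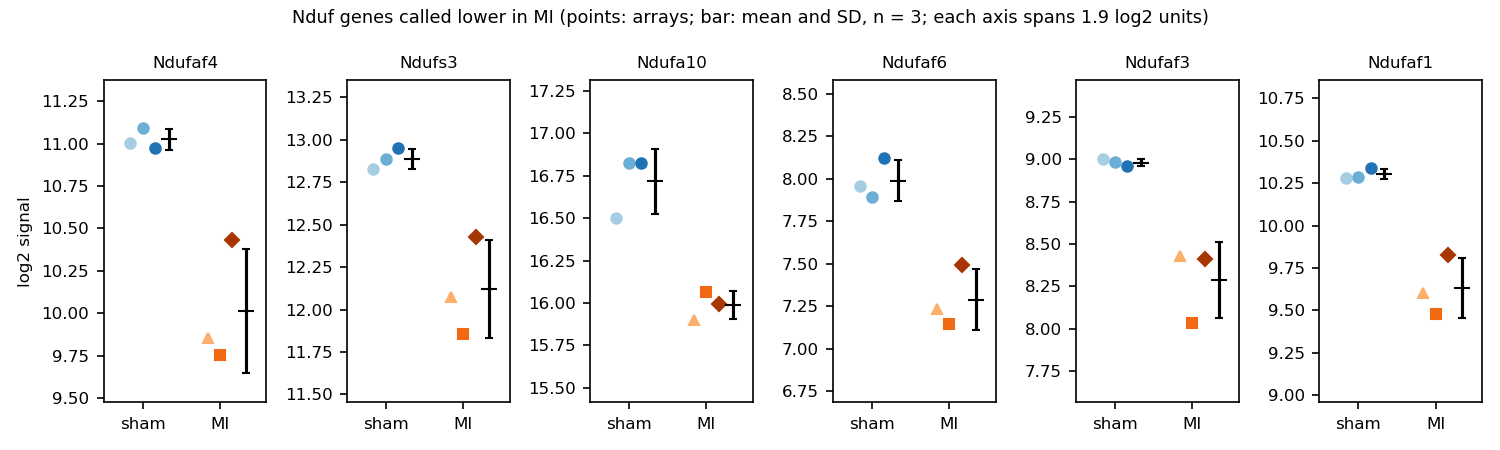
Log2 signal (y axis) of the 6 down-regulated Nduf genes in the 3 sham and 3 MI arrays (sham as circles, MI 1 as triangles, MI 2 as squares, MI 3 as diamonds, with the group mean and SD). In all 6 genes every MI array lies below every sham array, and in Ndufaf4 the MI arrays run from 9.76 to 10.43 against 10.98 to 11.09.

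MI 3 differed from the other MI arrays in many of these genes. MI 1 was below every sham array in 45 of 47 genes and MI 2 in 44, against 33.8% and 35.4% of all probe sets. MI 3 was below every sham array in 27 (32.4% of probe sets) and above every sham array in 10 (37.1%), namely Ndufs4, Ndufb11, Ndufa5, Ndufa1, Ndufa7, Ndufa4, Ndufa2, Ndufb3, Ndufb2 and Ndufa6. Of those 10, 9 are of the accessory series, 1 is Ndufs4 and 0 are assembly factors. Ndufa2, an N module subunit, shows the extent, with 11.45, 11.82 and 11.48 in sham and 11.07, 10.52 and 12.51 in MI arrays. Its log2 fold change was -0.22 (SE 0.49, limma, adjusted p = 0.82). Over the 47 genes MI 3 minus the mean of MI 1 and MI 2 had a median of 0.50 and ran from -0.91 to 1.71, while in the 8 assembly factors it ran from 0.18 to 0.63. This was not particular to complex I: the same median was 0.48, 0.59, 0.42 and 0.39 for genes of complexes II to V. The largest difference was 2.57 in complex IV and 2.13 in complex V. Over all probe sets tested the median was 0.03. MI 3 is also the array with the high small nuclear RNA signal, and the part of that in the scatter was not tested.

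**Figure D4:**
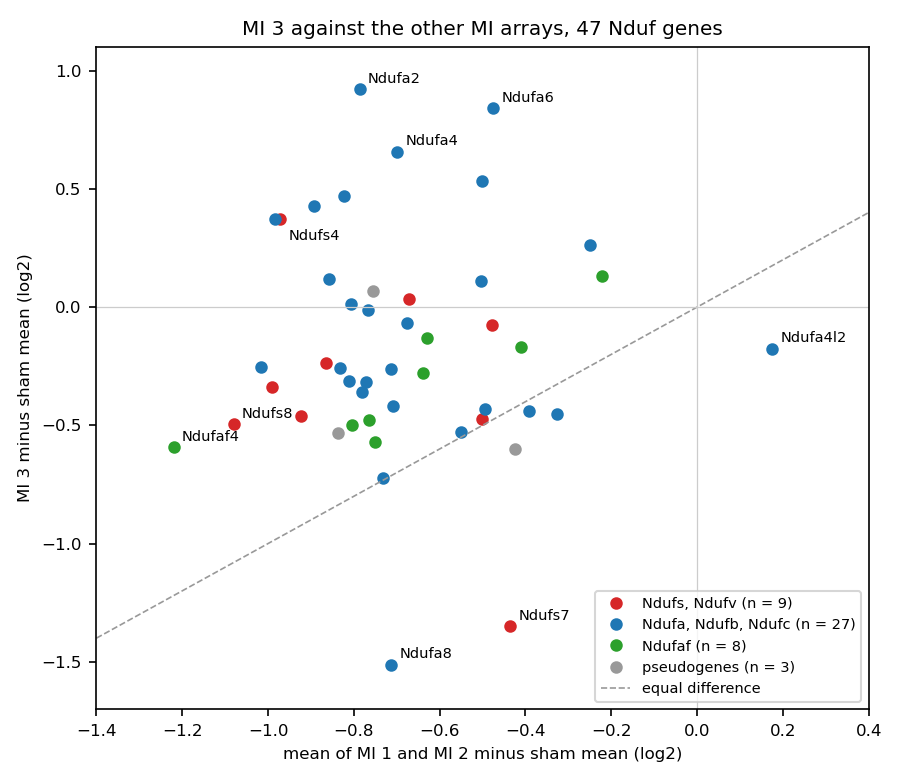
Difference of MI 3 from the sham mean (y axis, log2) against that of the mean of MI 1 and MI 2 (x axis, log2) for the 47 Nduf genes (points, coloured by series), with a dashed line of equal difference. All points but Ndufa4l2 lie left of 0 on the x axis, whereas on the y axis Ndufa2 and Ndufa6 lie far above 0 and Ndufa8 and Ndufs7 far below.

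Sham 1 lacked the atrial signal, and the MI arrays were therefore also set against this array alone. Every MI array was below sham 1 in 27 of 47 genes, against 30.3% of all probe sets. By series that was 6 of 9 Ndufs and Ndufv genes, 12 of 27 accessory genes and 8 of 8 assembly factors. With sham 2 and sham 3 left out, the medians were -0.48, -0.28 and -0.54 for the 3 series, and the 6 called genes had log2 fold changes of -0.51 to -0.99.

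Outside complex I are 2 genes of the set. Ndufa4, of complex IV, measured 17.75, 17.82 and 17.92 in sham and 17.07, 17.20 and 18.49 in MI arrays, a log2 fold change of -0.25 (SE 0.38, limma, adjusted p = 0.73), with MI 3 above and the other MI arrays below every sham array, as in several complex I genes. Without MI 3 its log2 fold change was -0.70 (limma, adjusted p = 0.014). Ndufa4l2, which is known to be induced by hypoxia through HIF-1, measured 5.63, 6.03 and 6.06 in sham and 6.00, 6.16 and 5.73 in MI arrays. Its log2 fold change was 0.06 (SE 0.17, limma, adjusted p = 0.87), the only one of the 47 above 0, and its groups overlapped. The copies and pseudogenes are uncertain, since their probes may read the parent gene: Ndufb4b had -0.65, Ndufb4c -0.56, Ndufs6b -0.74 (9.55, 10.24 and 10.03 in sham against 9.08, 9.13 and 9.41 in MI arrays), Ndufa11b -0.48 and Ndufs5-ps -0.48 (10.33, 10.24 and 10.47 against 9.79, 9.39 and 10.42). In none of these 5 did limma's adjusted p pass 0.05.

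Assembly factors of complex I outside the Nduf names lay lower too. Of 10 listed, 8 were tested and 3 were down-regulated (37.5%, against 3.69% of all probe sets and 6.41% of protein-coding genes). In all 8 every MI array was below every sham array, against 16.8% and 26.8%, and their median log2 fold change was -0.61. Ecsit, the partner of Ndufaf1, had log2 signals of 10.75, 10.89 and 10.89 in sham and 9.82, 9.81 and 9.65 in MI arrays, with MI 3 the lowest (log2 fold change -1.08, SE 0.10, limma, adjusted p = 0.012). Foxred1 and Timmdc1 were called at -0.87 and -0.58 (limma, adjusted p = 0.031 and 0.041). Of the 7 mitochondrially encoded subunits, 3 were tested and 0 called. ND2 measured 18.07, 19.09 and 19.14 in sham and 18.70, 18.74 and 18.57 in MI arrays, a log2 fold change of -0.09 that rests on the low sham 1. Without sham 1 it was -0.44 (limma, adjusted p = 0.11), and against sham 1 alone 0.60. ND6 had 0.13 and ND3 -0.01, the last at the highest signal of every array, where a difference cannot be read.

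The other complexes of the chain give the setting. Complex II had 0 of 4 genes called (median -0.57), complex III 4 of 9 lower (median -0.56), complex IV 0 of 11 (median -0.30) and complex V 0 of 15 (median -0.39). None had a gene called higher, and 3.69% of all probe sets were called lower. Every MI array was below every sham array in 4 of 4, 5 of 9, 4 of 11 and 10 of 15 genes, against 16.8% of all probe sets and 26.8% of protein-coding genes. The complex III calls were Cyc1 (-0.92), Uqcrc1 (-0.75), Uqcrfs1 (-0.56) and Uqcrc2 (-0.50). Of 9 regulators of mitochondrial genes tested, 5 were down-regulated (55.6%, against 3.69% of all probe sets and 6.41% of protein-coding genes). They were led by the coactivator Ppargc1a, with 14.88, 15.46 and 15.19 in sham and 13.74, 13.51 and 13.96 in MI arrays (log2 fold change -1.44, SE 0.19, limma, adjusted p = 0.019), and Ppara (-1.30, limma, adjusted p = 0.031), and included Ppargc1b, Esrrg and Esrrb (-0.75, -0.68 and -0.53). Nrf1 had 0.03 and Gabpa, the DNA-binding part of GABP, -0.48, neither called.

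RNA of markers of other cell types differed as well, which can come from more cells or from more RNA per cell. Of 9 fibroblast markers tested, 8 were up-regulated, against 3.04% of all probe sets, while Tcf21 was not (0.40, limma, adjusted p = 0.35). The mean log2 signal of the 9 was 9.85 to 10.23 in sham and 12.57 to 13.48 in MI arrays. Of 8 macrophage markers 3 were up-regulated (mean 8.51 to 9.10 against 9.49 to 10.11), while Cd163 was not called at -0.52 with every MI array below every sham array. Of 6 endothelial and 6 mural markers 0 were called. Every MI array was below every sham array for the endothelial Kdr (-0.54) and Tie1 (-0.51), and above every sham array for the mural Pdgfrb (0.86). Of 10 cardiomyocyte markers 0 were called, with a median log2 fold change of -0.13 and a mean of 17.52 to 17.55 in sham against 17.20 to 17.39 in MI arrays. In 6 of the 10 every MI array was still below every sham array, against 16.8% of all probe sets and 26.8% of protein-coding genes. These were Ryr2, Tnni3, Myl3, Myl2, Myh6 and Pln. At an unadjusted p under 0.05 (limma) 4 were lower, beside 13.2% of probe sets. Of the 10 markers, 3 or 4 per array lay within 0.3 of the highest signal and can show little change. Among markers further from it, Ryr2, Tnni3, Myl3, Myl2 and Ttn had -0.89, -0.46, -0.41, -0.33 and -0.14, while Mybpc3 had 0.19. Of the rarer cells, 1 of 4 lymphocyte markers and 0 of 3 adipocyte markers passed the filter.

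Scaling and weighting changed how many genes were called but not the direction. With quantile normalization limma called 11 Nduf genes lower (4.65% of probe sets), and with array weights 41 (16.8% of probe sets), the same 6 among them in both. The weights gave MI 1 86.1% of the weight of the MI group, MI 2 10.3% and MI 3 3.62%, so the 41 calls rest mostly on 1 MI array. The count higher was 0 throughout.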

How the data were processed

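Log2 signals of 6 one-colour Affymetrix mouse transcriptome arrays 1.0 were analysed as deposited. Per the methods, the authors made these log2 values with RMA and SKETCH quantile normalization in Expression Console, and the sources used here name no genome build for the array annotation. The table holds 0 columns of other samples. Of 72688 probe sets, 6732 controls and 186 on unplaced sequence were left out. Symbols came from the platform annotation and were checked against RefSeq (GRCm38.p6, 0 changed).

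Probe sets with a mean at or above the 50th percentile (log2 4.35) were compared between MI and sham by the two-sided moderated test of limma 3.58.1 (R 4.3.3) without covariates. P-values were adjusted by Benjamini-Hochberg over 32885 probe sets, with a call at an adjusted p under 0.05. The smallest exact permutation p for 3 against 3 is 0.1, so none was used. The procedure was tested on simulated data. The number of arrays limits the precision. Every Nduf gene could be named, and signals in every array are given for called genes, the extremes of each series, genes at least 2-fold changed, Ndufa4 and Ndufa4l2. Array values for Ndufs4, Ndufs7, Ndufa2, Ndufa6, Ecsit, ND2 and Ppargc1a illustrate a pattern and were chosen after their values were seen, as were some genes of other lists. The genes and lists were chosen with earlier results of these data known. Alternatives were other scalings, filters and tests, array weights, a replicate block and arrays left out. Leaving out 2 arrays together was chosen after seeing the data, and so was including the unplaced probe sets. Figures were drawn with matplotlib 3.10.9.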

Additional observations from a re-analysis of the deposited data

How the results depend on the processing

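The 6 lower calls became 7 with each array centred on its median, 5 without a filter and with trend and robust fitting, 11 with quantile normalization, 4 with centring on cardiomyocyte markers and 41 with array weights. The centring on cardiomyocyte markers moved fold changes by -0.02 only, and since several markers lie at the highest signal it is no correction for cardiomyocyte content. The lower calls became 0 with the methods' t-test, which gave 21 genes at an unadjusted p under 0.05, beside 12.3% of probe sets. Leaving out 1 array gave 0 (sham 2, sham 3, MI 1 or MI 2) to 29 (MI 3). Leaving out sham 1 with MI 3 gave 36, and sham 2 with sham 3, which leaves 1 sham array and calls no probe set lower, gave 0 with 5 at an unadjusted p under 0.05. The count of higher calls was 0 in all these settings. The cause of these changes was not tested. Over all probe sets tested, sham 2 and MI 2 deviated together (r = 0.34), while the arrays numbered 1 and 3 deviated in opposite ways (r = -0.28 and -0.36). The highest r was 0.49, between the differently numbered sham 1 and MI 3. With the replicate number as a block limma called 0 Nduf genes, with 25 at an unadjusted p under 0.05, beside 11.2% of probe sets.

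Medians stayed below 0. With 1 array left out they ran from -0.73 to -0.45 for all 47 genes, from -0.86 to -0.54 for Ndufs and Ndufv, from -0.71 to -0.41 for accessory genes and from -0.69 to -0.52 for assembly factors. Without sham 1 and MI 3 they were -0.80 for all and -0.84 for accessory genes, and with quantile normalization -0.90 for Ndufs and Ndufv. With 1 array left out, 6 of the 47 genes changed sign: Ndufa2 (-0.79 to 0.20), Ndufa6 (-0.48 to 0.19), Ndufb3 (-0.50 to 0.12), Ndufb2 (-0.25 to 0.08), Ndufa4, which ran from -0.70 to 0.013 (without MI 1), and Ndufa4l2, which ran from -0.082 (without sham 1) to 0.18 and was -0.04 without MI 2. The genes called with all 6 arrays could not change sign, since every MI array was below every sham array in them.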
